A study of Mus musculus with 14 samples.

Results

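Retained-intron transcripts were examined in hepatocytes of mice that lack Srsf1, the gene of the splicing factor SRSF1. A retained-intron transcript is an annotated RNA of a gene that keeps sequence which other transcripts of the gene splice out. Members were the transcripts that the deposited abundance table marks with the biotype retained_intron and that had a mean of at least 1 TPM over its 14 libraries, TPM being transcript abundance scaled to transcript length and to the library's total. The rule took 2070 of 20988 retained_intron transcripts, in a table of 137767 transcripts. This scaling by length means that levels of different transcripts can be set side by side. The second measure was the share, the percentage of a gene's summed TPM that 1 transcript holds.

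Messenger RNA was poly(A)-selected from purified hepatocytes of C57BL/6 mice and sequenced as stranded libraries. Controls carrying albcre+/- alone were sampled at postnatal day 10 (P10, 2 libraries) and at 1 month (2 libraries). Hepatocyte knockouts labelled HKO, srsf1f/f with albcre+/-, were sampled at the same ages with 2 libraries each. In these mice an albumin promoter drives Cre in the hepatocyte lineage, and the labels give the controls no floxed Srsf1 allele. In the acute model all mice were srsf1f/f and received an adeno-associated virus, AAV8, with the hepatocyte promoter TBG at 8 weeks of age. The virus carried GFP in the 3 control libraries and iCre in the 3 knockout libraries labelled acHKO, and livers were sampled 2 weeks later, at 10 weeks. The labels do not say whether replicates are separate animals, so the tests measure the spread between these libraries, which may be technical.

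SRSF1 is an SR protein: it binds purine-rich motifs such as GGAGA in exons and helps the spliceosome recognise the flanking splice sites. Its own transcript, like those of other SR proteins, is known to be regulated by alternative and incomplete splicing. An intron that stays in a messenger RNA usually brings a stop codon into the reading frame, and such RNAs are either held in the nucleus or degraded by nonsense-mediated decay. In a poly(A)-selected library both kinds can still be counted.

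The 2070 members belonged to 1437 genes, of which 1026 had 1 member, and Gas5, a snoRNA host gene, had the most, 9. Most were scarce and short: the median of their mean levels was 1.99 TPM (quartiles 1.36 and 3.66) and their median length was 748 nt. A member held a median of 9.51% of its gene's TPM, and 68 held more than 50%. There were 166 members with a mean of 10 TPM or more and 12 with 100 TPM or more. Since the mean over all libraries chose the members, a transcript that is high in 1 group could enter through that group alone: 626 members had at least 1 TPM in every library and 107 were listed at 0 in at least 1. The members nearest to the limit were Ermard-213 (mean 1.0 TPM) and Psma4-203 (1.0003 TPM) just inside it, and Abcc2-203 (0.99981 TPM) and Hacl1-208 (0.99969 TPM) just outside.

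The label was checked against the GENCODE M21 annotation on GRCm38, where 2010 members were found by identifier. A whole intron of a coding transcript lay within 538 of them (26.8%), while 1437 (71.5%) held only part of an intron, at a fragment's edge. Another 11 had no intronic base, and 24 belonged to genes without a coding transcript. Many members are fragments rather than full-length messages: 539 reached the gene's 3′ end alone, 453 its 5′ end alone, 109 reached both and 909 lay inside, an end being within 5% of the gene's length. No base of their own distinguished 222 members from other transcripts of the gene, so their TPM rests on how the estimation software divides shared reads.

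Introns kept whole were short. Members held 790 different whole introns with a median length of 247 bases (quartiles 112 and 593), against 1015 bases (329 and 2509) for 18957 other introns of the same genes' coding transcripts. Their ends were GT-AG in 96.8% and GC-AG in 2.28%, the usual splice site pairs, and their median GC content was 50.6%. Of 735 that could be read in the frame of a coding transcript, 668 (90.9%) met a stop codon within the intron, 49 shifted the frame and 18 left it open. GGAGA, searched on the transcript strand, occurred in 35.8% of the members' introns, or 1.35 times per 1000 bases. In 7175 whole introns of retained_intron transcripts below 1 TPM, whose median length was 292 bases, it occurred in 42.0%, or 1.38 times per 1000 bases, and 89.0% of those readable met a stop.

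**Figure D1:**
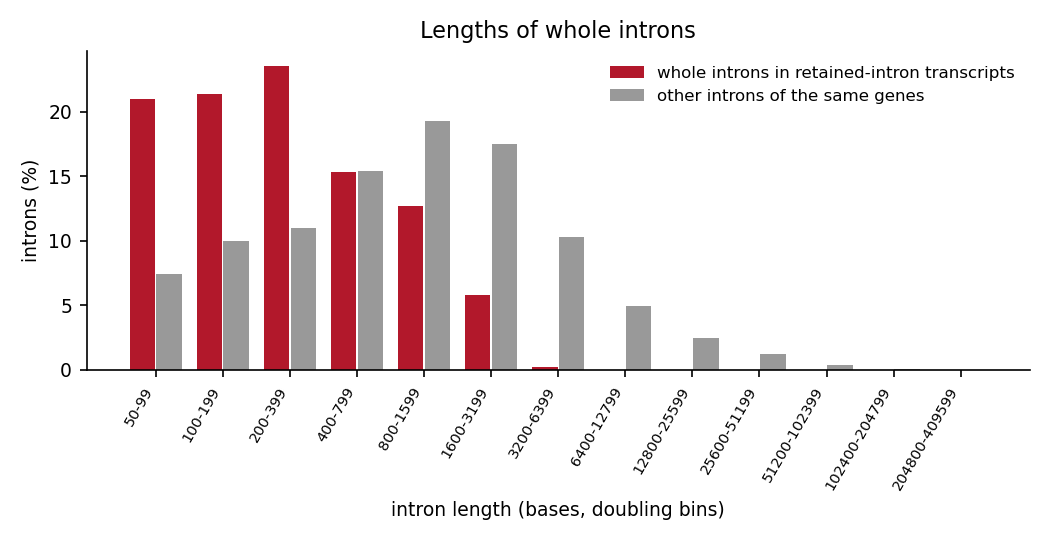
Lengths of whole introns, as the percentage of introns (y axis) in bins that each double in length in bases (log x axis). Introns held by members have a median of 247 bases and those of the other introns of the same genes a median of 1015 bases.

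Among members that hold exactly 1 whole GT-AG intron of at most 300 bases between coding exons (231 in all), 18 had a higher share in the acute knockout (7.79%) and 4 a lower one (1.73%), by the test described below, beside 9.35% and 12% of all transcripts tested. Shown here, to make visible what stays in these RNAs, are the introns of the 4 most abundant that were higher, of 1 that was lower, in Irf3, and of the splicing factor gene Hnrnph3, which was higher. They were read from the GENCODE M21 transcripts (GRCm38), on the transcript's strand, and capitals mark the first and last 2 bases and the first stop codon in frame.
Ftcd-202: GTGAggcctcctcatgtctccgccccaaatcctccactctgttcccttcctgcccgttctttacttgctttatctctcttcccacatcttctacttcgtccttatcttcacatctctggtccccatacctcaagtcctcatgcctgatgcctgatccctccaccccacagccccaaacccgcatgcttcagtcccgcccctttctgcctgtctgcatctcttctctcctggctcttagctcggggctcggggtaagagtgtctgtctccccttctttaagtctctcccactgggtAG
Cyp27a1-203: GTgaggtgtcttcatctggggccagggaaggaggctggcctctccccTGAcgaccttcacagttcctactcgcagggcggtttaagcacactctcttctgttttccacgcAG
Aup1-204: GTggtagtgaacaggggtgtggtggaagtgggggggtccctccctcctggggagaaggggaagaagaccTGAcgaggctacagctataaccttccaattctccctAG
Abcc6-205: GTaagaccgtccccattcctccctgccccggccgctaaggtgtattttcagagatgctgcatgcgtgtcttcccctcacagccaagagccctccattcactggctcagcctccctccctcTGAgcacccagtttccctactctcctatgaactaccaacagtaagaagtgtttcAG
Hnrnph3-205: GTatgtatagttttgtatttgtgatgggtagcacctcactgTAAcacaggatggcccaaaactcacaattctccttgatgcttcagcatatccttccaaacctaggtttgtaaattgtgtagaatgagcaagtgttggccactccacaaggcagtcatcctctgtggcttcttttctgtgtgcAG
Irf3-207: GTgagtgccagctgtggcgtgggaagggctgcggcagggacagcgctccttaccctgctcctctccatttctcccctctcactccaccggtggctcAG
The Ftcd intron, of an enzyme of histidine and folate metabolism, is intron 8 of 13 at chr10:76583873-76584169 (plus strand, 297 bases), and its stop codon starts at base 2. Cyp27a1, a mitochondrial sterol hydroxylase of bile acid synthesis, keeps intron 4 of 8 at chr1:74735752-74735863 (plus strand, 112 bases), with the stop at base 48. The Aup1 intron, of a lipid droplet protein, is intron 7 of 11 at chr6:83056435-83056541 (plus strand, 107 bases) and is the only one of these 6 with a GGAGA. Abcc6, a transporter of the hepatocyte membrane, keeps intron 16 of 30 at chr7:45998827-45999002 (minus strand, 176 bases). The intron that was lower lies in Irf3, a transcription factor of antiviral responses, at chr7:45000547-45000644 (intron 5 of 7, plus strand, 98 bases). The Irf3 intron has no stop in frame, but its length shifts the frame. In Hnrnph3, an RNA-binding protein of the hnRNP family, intron 8 of 9 is kept at chr10:63015895-63016079 (minus strand, 185 bases).

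Whole-gene Srsf1 was lower in every knockout group. It stood at 43.6 and 46.4 TPM in the P10 controls against 29.98 and 23.4 TPM in HKO, at 23.2 and 20.01 against 7.74 and 9.17 TPM at 1 month, and at 16.5 to 32.3 against 3.69 to 5.34 TPM in the acute model. No group overlapped its control. The table gives no read counts, so depth is unknown. Members together held 7940 to 23345 TPM per library, and 24.4% of that on average was Trf-209. Summed hepatocyte markers reached 32220 to 114400 TPM in every library. At P10 they were at 114400 and 109200 TPM in controls and 77670 and 61340 TPM in HKO. Most of that sum was Alb, at 83010 and 79340 against 55330 and 41740 TPM. Apoa1, Ttr, Serpina1b, Fgb, Asgr1 and Tdo2 were lower in HKO too, while Apob, Cps1 and Hnf4a overlapped between the groups. Cholangiocyte markers were at 57.6 and 70.2 against 130 and 163 TPM at P10, and at 1.95 and 1.64 against 34.9 and 20.5 TPM at 1 month. Most of each sum was Spp1, at 54.6 and 66.8 against 101.7 and 130.7 TPM at P10. At 1 month Spp1 was at 1.12 and 0.998 against 32.5 and 17.9 TPM. Krt7 overlapped between the groups at both ages and Muc1 at 1 month, while the others of the list were higher in HKO at lower levels. Macrophage markers were at 435 and 456 against 742 and 510 TPM at P10, and at 16.5 and 20.5 against 158 and 56.8 TPM at 1 month. Summed erythroid markers were at 2924 TPM in the second HKO library at P10. The part of these markers in the P10 and 1-month results was not tested. In the acute model summed hepatocyte markers overlapped, at 40350 to 52700 TPM in GFP and 32220 to 49590 TPM in the knockout. Hnf4a was at 113.8 to 154.9 TPM in GFP and 30.2 to 50.9 TPM in the knockout. Cps1, Serpina1b and Ttr were lower without overlap too, while the other hepatocyte markers overlapped. Acute erythroid markers were at 30.1 to 47.04 TPM in GFP and 8.29 to 12.4 TPM in the knockout. Macrophage markers were at 5.64 to 14.4 and 8.21 to 52.9 TPM, and the nuclear RNA Malat1 at 13.4 to 22.95 and 24.4 to 35.2 TPM. Nearly all of the acute erythroid sum was Alas2, at 29.8 to 46.4 TPM with GFP and 7.11 to 11.8 TPM in the knockout. The globins of that list were all under 1 TPM in both groups. The part of these markers and of Malat1 in the acute results was not tested. The second HKO library at P10, and the first libraries of both 1-month groups, stood apart from their partners. In bulk libraries fewer cells of a type and less RNA per cell cannot be told apart.

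In the acute model many members took a larger share of their gene after Srsf1 was lost. By limma, 277 of 2070 members (13.4%) had a higher share and 74 (3.57%) a lower one, at an adjusted p below 0.05 with a difference of at least 10 percentage points. Among all 16887 transcripts of genes with at least 2 transcripts, 9.35% were higher and 12% lower. Of processed_transcript RNAs, another biotype without a coding sequence, 13.7% were higher and 5.86% lower. Of nonsense_mediated_decay RNAs it was 10.3% and 7.74%, and of protein-coding ones 8.09% and 14.2%. The percentage with a higher share was thus not particular to the members. A lower call needs a mean share of at least 10% with GFP. The median member share there was 6.31%, so most members could not be called lower. The median difference was 1.51 percentage points over the members and −0.17 over all transcripts. Over the 277 members, with values that chose them, the median rise was 14.7 points: the member itself moved by a median of 0.70 on the log2 scale of TPM + 1, and the other transcripts of its gene by −0.48. TPM alone was called higher in 161 of these, lower in 5 and neither way in 111. Of the 74 with a lower share, 62 were also lower in TPM, and the others of their genes moved by a median of −0.22.

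By TPM, 404 members (19.5%) rose in the acute knockout and 319 (15.4%) fell, while 8.49% of 18682 transcripts rose and 30.4% fell. The median over all transcripts was −0.29 on the log2 scale and that of the members 0.04. Where libraries were rescaled by the median ratio, the median over all transcripts became 0.02 and the members split into 738 higher and 186 lower. Under that scaling 7373 of all 18682 transcripts were called in either direction. Without the first GFP library the balance turned, to 317 higher and 423 lower, with 8059 of all transcripts called. Shares within a gene hardly depend on such scaling, and the account below leads with them.

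**Figure D2:**
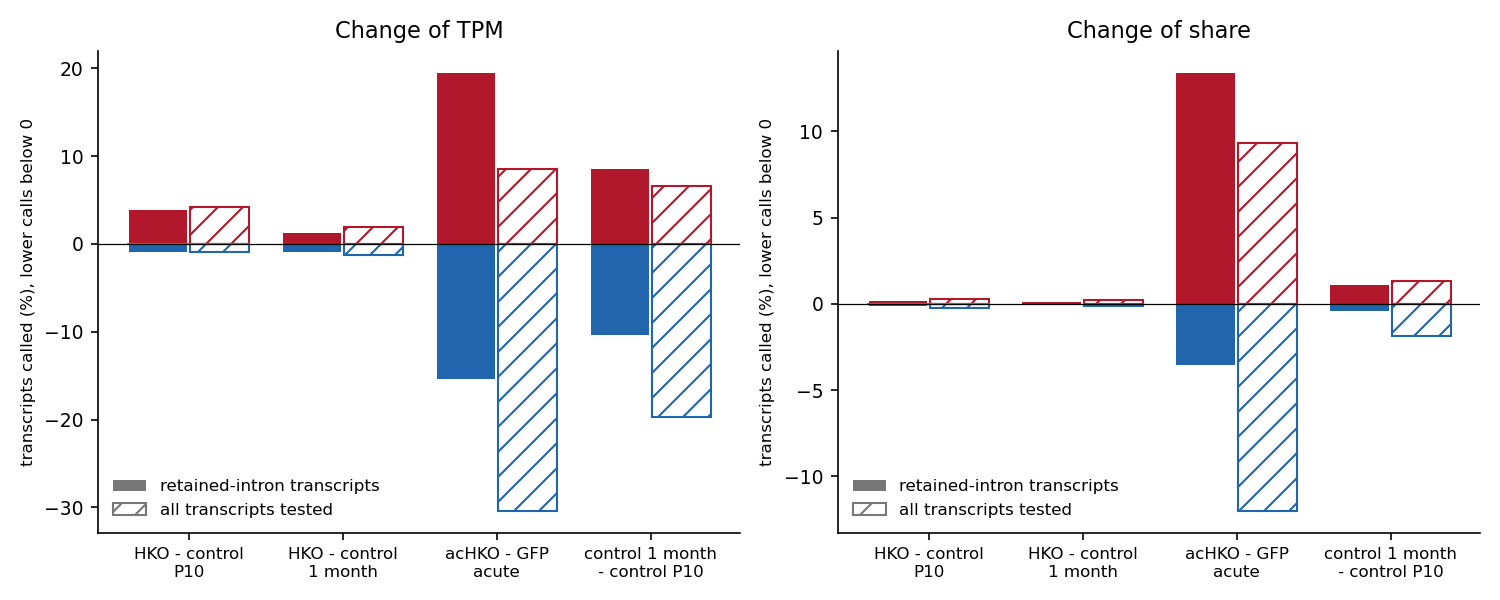
Percentage of members and of all tested transcripts called higher or lower (y axis) in 4 comparisons, by TPM and by share of the gene. In the acute model 13.4% of members rose in share against 9.35% of all transcripts, and 3.57% fell against 12%; at P10 and 1 month under 1% were called in either direction by share.

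The most abundant member, Trf-209, comes from the gene of transferrin, the iron carrier that hepatocytes secrete into plasma. It lies inside the gene at chr9:103209025-103212006 (minus strand, 3 exons, 433 nt), and only its first 10 bases, at chr9:103211997-103212006, belong to no other Trf transcript. The capitals below mark those bases, followed by bases that other Trf transcripts share.
Trf-209: CTCTACCCAGgaaagaaccctgccg
In the GFP libraries Trf-209 held 10.2%, 9.55% and 10.6% of Trf, and in the acute knockout 32.5%, 30.5% and 38.2%. The groups did not overlap, and the difference of 23.6 points was called (adjusted p = 0.000185). Its level rose from 586, 652 and 891 to 1620, 1500 and 1518 TPM, while the rest of the gene moved by −1.03 on the log2 scale. In the other 8 libraries its share lay between 35.0% and 50.3%, so the acute knockouts were near the P10 and 1-month libraries and the GFP libraries stood apart. In the authors' deposited table the whole gene had a log2 fold change of −0.29 with an adjusted p-value of 0.113.

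That order of groups recurred across the members with a higher acute share. Their median share was 9.84% in the GFP libraries and 27.6% in the acute knockouts, but it was also 18.8% and 21.3% in P10 controls and HKO, and 24.3% and 25.2% at 1 month. Among the 277, the GFP libraries lay below all 11 others in 162, and the acute knockouts above all 11 others in 60. The mean of the acute knockouts fell inside the range of the 8 P10 and 1-month libraries for 172 of the 277, and the mean of the GFP libraries for 62. Over all 2070 members, GFP lay below all others in 374 and the acute knockouts above all others in 145. In the other direction, GFP lay above all others in 98 and the acute knockouts below all others in 79. The 74 with a lower share, chosen by these same values, had medians of 34.8% with GFP and 16.4% in the acute knockout. In the 4 other groups the median was 19.5% to 24.4%. Among the 74, GFP lay above all 11 others in 38 and the acute knockouts below all 11 others in 15. Age, virus and genotype all differ between the 2 models, so what sets the GFP libraries apart cannot be told apart from these labels.

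Cyp27a1-203, which reaches the 3′ end and keeps the 112-base intron printed above, illustrates the order in a bile acid gene. It held 8.1%, 8.85% and 6.56% of Cyp27a1 with GFP and 31.3%, 33.6% and 30.2% in the acute knockout (difference 23.9 points, adjusted p = 0.000139). The groups did not overlap, and the 8 other libraries lay between, at 15.5% to 27.3%. Asah1-203, of the lysosomal acid ceramidase, went from 4.29%, 4.67% and 3.36% to 24.1%, 35.8% and 30.5% (26.1 points, adjusted p = 0.000673). Here too the groups did not overlap, and the 8 other libraries, at 24.3% to 35.5%, matched the knockout side. Aup1-204 went from 2.84%, 2.09% and 5.47% to 14.4%, 15.1% and 20.9%, with the others at 14.7% to 25.4%. Ftcd-202 had 16.3%, 17.3% and 19.5% of its gene with GFP and 30.4%, 30.6% and 36.1% in the knockout, although its TPM was not called (log2 difference 0.06) and the rest of the gene moved by −1.07.

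The largest rises in share were found in 6 genes of varied function. Rnaseh2c-203, of a ribonuclease H2 subunit, was listed at 0 and had 2.75% and 3.39% of its gene with GFP, against 36.9%, 40.6% and 54.1% in the knockout (41.8 points, adjusted p = 0.000185). The groups were far from overlapping, and the 8 other libraries lay at 25% to 45.8%. Gckr-204, of the glucokinase regulatory protein, went from 7.04%, 12.9% and 14% to 49.7%, 48.6% and 55.9% (40.1 points). Its knockout libraries also lay above the 18.4% to 45.6% of the other 8. Cntrl-210, of centriolin, a centrosome protein, rose by 34.5 points, Ginm1-205 by 33.7, Inpp5f-206, of an inositol phosphatase, by 31.3, and Tubgcp3-208, of a γ-tubulin complex subunit, by 30.2. Each of these 4 reached the 3′ end of its gene. Ginm1-205 also had one of the largest rises in level, from 1.84, 2.58 and 2.37 to 34.5, 47.7 and 23.2 TPM (log2 3.42, adjusted p = 0.000397).

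The largest falls had another geometry: of the 6 named here, 5 reach the 5′ end of their gene and the other could not be placed. Apobec1-204, of the enzyme that edits apolipoprotein B messenger RNA, went from 39.2%, 36.4% and 49.8% with GFP to 12.0%, 11.8% and 11.8% (−29.95 points, adjusted p = 0.0045). Rtf2-202 went from 38.5%, 40.4% and 42.4% to 13.1%, 13.8% and 7.21%. In both the groups were well apart. Immp2l-204, of a mitochondrial inner membrane peptidase, fell by 28.8 points and Usp15-209, of a deubiquitinase, by 27.7. Coro1b-206, of the actin regulator coronin, fell by 25.7 points, but its values ran from 1.2% to 19.3% within the knockout group and it was listed at 0 in 1 HKO library. Cyp2d12-206, of a cytochrome P450, fell by 53.2 points while its own TPM was not called (log2 −0.01): the other transcripts of the gene moved by 1.39.

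Position in the gene went along with direction. Of 539 members at the 3′ end, 29.1% rose in share and 0.928% fell, with a median difference of 5.51 points. Of 453 at the 5′ end, 2.87% rose and 10.2% fell, with a median of −0.24. Members inside their gene lay between (9.57% and 1.65%, median 1.49 points). By TPM, 34.7% of the 3′ group rose and 5.75% fell, against 5.08% and 32.9% of the 5′ group. With ends taken as within 10% of the gene, 25.7% of the 3′ group rose in share and 9.26% of the 5′ group fell. Other RNAs without a coding sequence, of the biotype processed_transcript, had the same split: 28.4% rose and 0.312% fell at the 3′ end, and 6.23% rose and 12.7% fell at the 5′ end. Protein-coding transcripts at the 3′ end differed less: 12.7% rose and 9.4% fell in share, with a median of 0.21 points, and by TPM 11.1% rose and 26% fell. At the 5′ end 6.74% of them rose and 16.2% fell in share.

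Library averages showed the same order. Mean share of the members at the 3′ end was 10.9%, 11.9% and 11.8% in the GFP libraries, 17.3%, 19.5% and 19.0% in the acute knockouts and 15.1% to 22.2% in the 8 others. At the 5′ end it was 14.8%, 15.9% and 16.03% with GFP, 13.8%, 13.3% and 13.9% in the acute knockouts and 12.99% to 14.5% elsewhere. GFP lay outside all other libraries on both, in opposite directions. Coding transcripts of 4000 nt or more held 2.01% to 2.85% of TPM with GFP and 1.32% to 1.57% in the acute knockouts. They held 1.85% and 1.42% in the first libraries of the 2 groups at 1 month and 2.35% and 2.18% in the second. In the same first libraries, members at the 3′ end had mean shares of 22.0% and 22.2%, against 16.7% and 16.9% in the second. In HKO at P10 the library at 2.53% likewise had the higher 3′ share, 19.4%, and the one at 3.08% had 15.1%. P10 controls, at 2.62% and 2.65%, had 3′ shares of 16.02% and 16.2%. Other values did not follow this order. Between P10 and GFP the long-transcript values overlapped, yet every P10 library had a higher 3′ share than every GFP library. Among the GFP libraries the one at 2.01% also had the lowest 3′ share. The part of these values in the result was not tested.

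**Figure D3:**
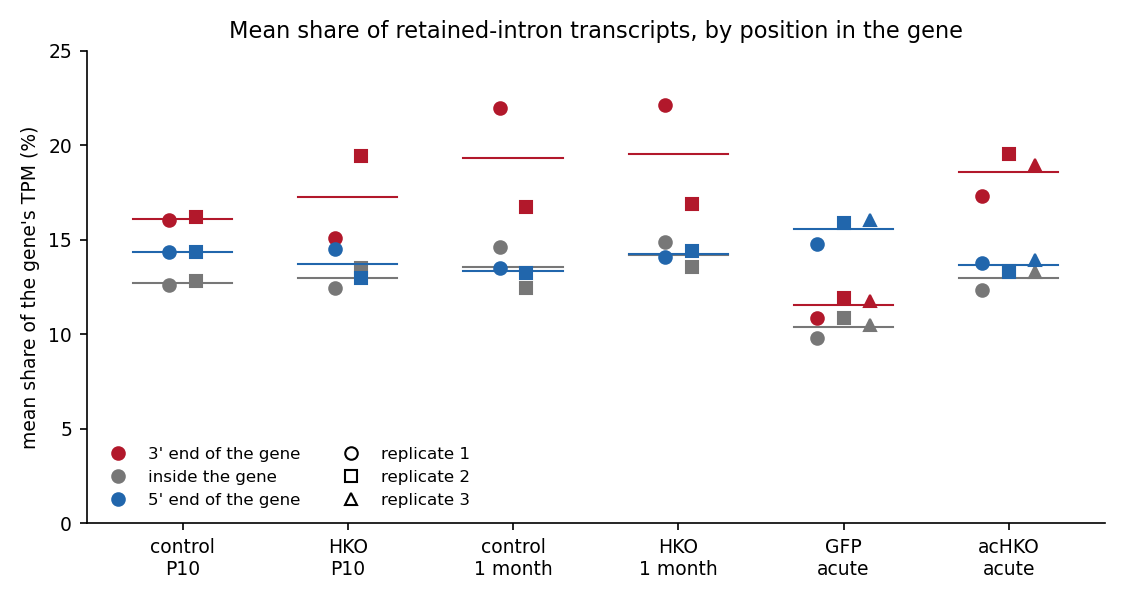
Mean share of the gene's TPM (percent, y axis) held by members at the 3′ end, inside and at the 5′ end of their genes, with 1 point per library and a line at each group's mean. GFP libraries lie at 10.9% to 11.9% for the 3′ end, below every other library, and at 14.8% to 16.03% for the 5′ end, above every other library.

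**Figure D4:**
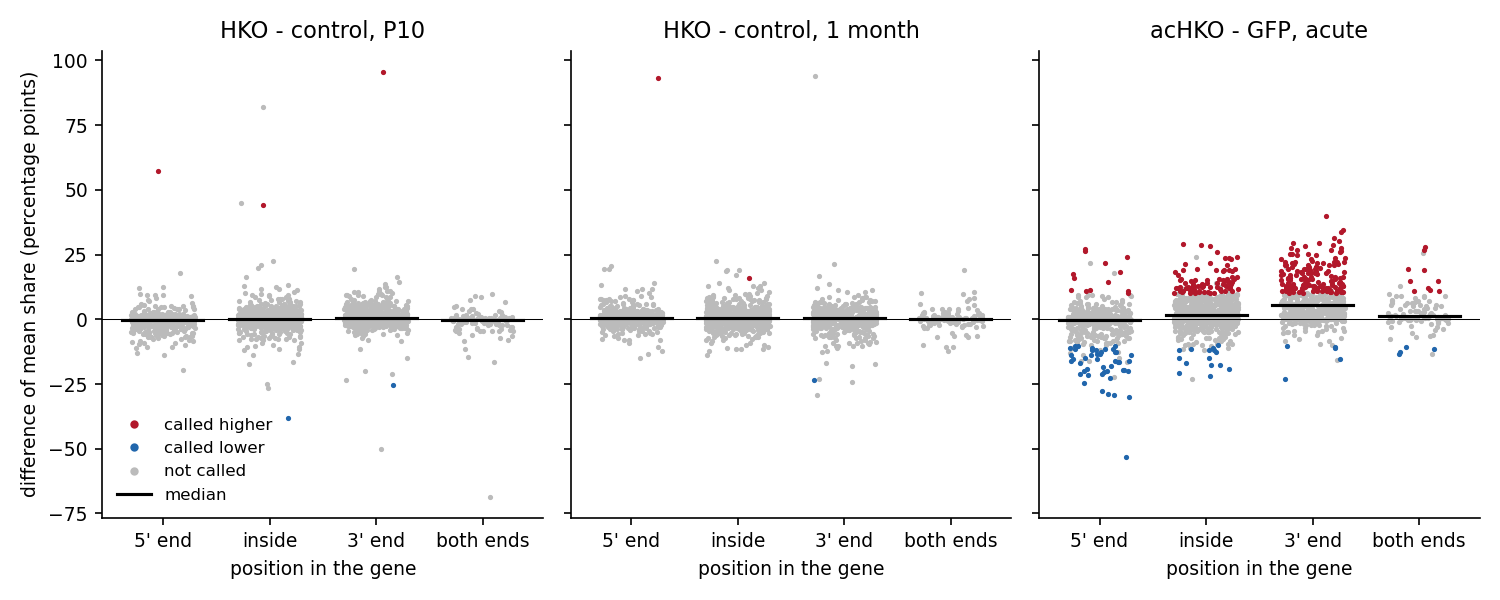
Difference of mean share between knockout and control (percentage points, y axis) for each member, by position in the gene, for P10, 1 month and the acute model; members called higher are red and those called lower blue. In the acute model the red points gather at the 3′ end (157 of 277) and the blue ones at the 5′ end (46 of 74).

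Members that lie inside their gene and keep a whole intron reach neither end of it. Of these 158, 10 rose in share (6.33%) and 0 fell by limma, beside 13.4% and 3.57% of all members and 9.35% and 12% of all transcripts. Members with less than 10% of their gene with GFP could not be called lower, so the count of falls is partly set by that limit. At an unadjusted p below 0.05, with no minimum difference, 8 of the 158 were lower. Those that rose were Wdr18-204, Timm17b-203, Jmjd1c-203, Faah-203, Hnrnph3-205, Cdip1-204, Slc30a9-203, Srsf1-203, Abcc6-205 and Abcf3-202, by 10.5 to 21.2 points. Of these, Srsf1-203 has no base of its own. In 5 of the 10, Abcc6, Faah, Hnrnph3, Jmjd1c and Slc30a9, the acute knockouts lay above all 11 other libraries, and in 4, Abcc6, Faah, Jmjd1c and Timm17b, the GFP libraries lay below all 11 others. Faah-203, of fatty acid amide hydrolase, which breaks down endocannabinoids, had 1.39%, 2.09% and 2.83% of its gene with GFP and 19.6%, 15.4% and 19.7% in the knockout (16.2 points, adjusted p = 0.000161). The groups did not overlap, and the other 8 libraries lay between at 3.69% to 11.5%, higher in HKO than in controls at both ages without being called. Abcc6-205 went from 5.16%, 8.12% and 9.3% to 18.9%, 19.8% and 20.3% (12.1 points, adjusted p = 0.00123), with the others at 10.6% to 14%. For Abcc6 the knockout side was thus above every other library and the GFP side below. Of the 151 members at the 5′ end that keep a whole intron, Irf3-207 fell from 26.1%, 23.6% and 22.6% to 11.7%, 11.8% and 14.9%.

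Splicing genes carried several of these RNAs. Of 77 members in genes of splicing regulators, 12 rose in share in the acute model (15.6%) and 1 fell, beside 13.4% and 3.57% of all members. Srsf6-204, of another SR protein, keeps a whole intron at the 5′ end and runs against the split by position: it held 12.4%, 18.4% and 14.8% of Srsf6 with GFP and 40.5%, 36.1% and 34.3% in the acute knockout (21.8 points, adjusted p = 0.000604). Knockouts lay above all 11 other libraries, which at P10 and 1 month ran from 21.5% to 31.3%. Its TPM was not called (log2 0.47), while the rest of Srsf6 moved by −1.07. Luc7l-205, of a U1 snRNP-associated protein, went from 10.5%, 13.3% and 22.6% to 38.1%, 45.1% and 52.2%. Those knockout values overlapped the 34.4% to 48.9% of the 8 other libraries. Srrm2-209, of a nuclear speckle scaffold, rose by 23.8 points, Srsf5-212 by 19.0, Rbm25-216 by 17.1, Hnrnph3-205 by 15.7, Srsf11-213 by 13.4, Clk1-202, of a kinase of SR proteins, by 12.7, Rbm5-212 by 12.6 and Hnrnpl-205 by 12.5. Clk1-202 is an RNA of a gene known for an intron held in the nucleus; it had 3.33%, 5.92% and 5.36% with GFP, 18.4%, 18% and 16.3% in the acute knockout and 6.47% to 11.1% elsewhere. Elavl1-203, of the RNA-stabilising protein HuR, fell by 15.4 points; it reaches the 5′ end. Srsf5-212 and Rbm5-212 are named after their values were seen.

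Srsf1-203 is the retained-intron RNA of the deleted gene and has no base of its own among Srsf1 transcripts. Its TPM fell by 1.63 on the log2 scale at P10, by 1.36 at 1 month and by 0.99 in the acute model (adjusted p = 0.00638, 0.0171 and 0.0108). Its share moved in opposite directions. With GFP it held 12.4%, 11% and 12.5% of Srsf1, against 34.7%, 16.6% and 22.6% in the acute knockout, a called rise of 12.7 points (adjusted p = 0.003). In P10 controls it held 16.9% and 18.7%, against 8.56% and 5.93% in HKO, and at 1 month 14.2% and 12.2% against 5.46% and 6.18%. Neither of these lower shares was called (adjusted p = 0.0502 and 0.714), and the difference between the acute and the 1-month effect, 20.04 points, was (adjusted p = 0.013).

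**Figure D5:**
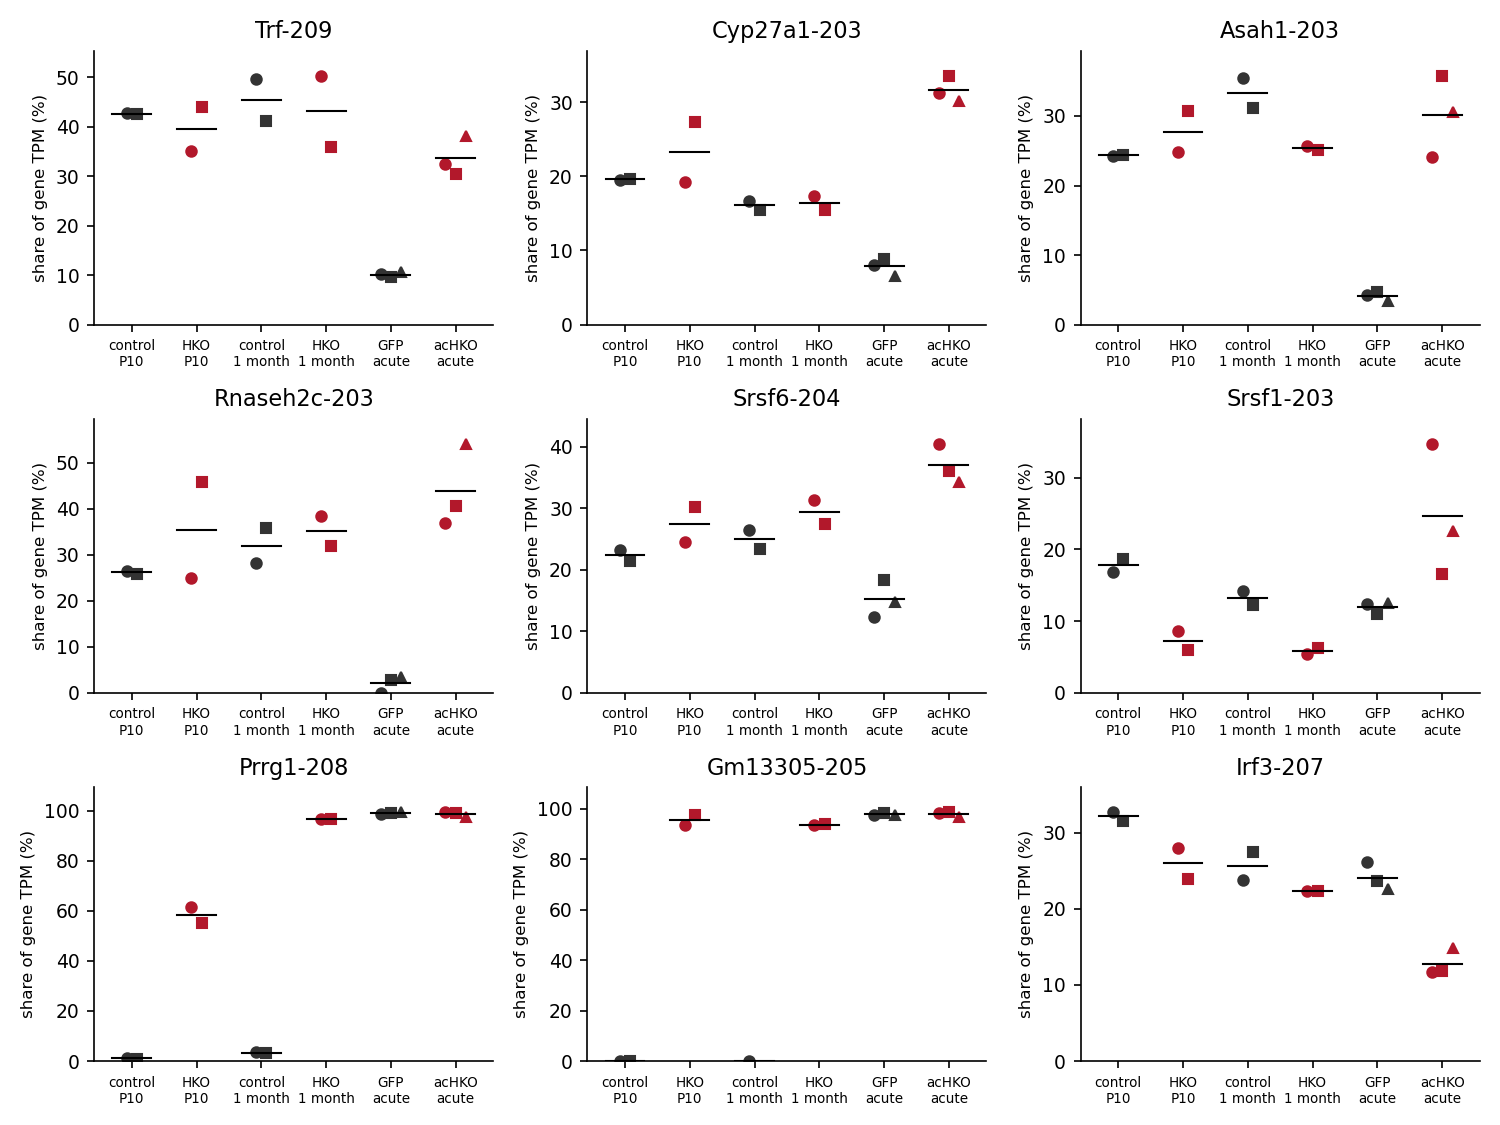
Share of the gene's TPM (percent, y axis) in every library for 9 members, with controls grey and knockouts red. Trf-209, Cyp27a1-203, Asah1-203 and Rnaseh2c-203 are low in the GFP libraries alone, Srsf6-204 is highest in the acute knockouts, and Prrg1-208 and Gm13305-205 are low only in P10 and 1-month controls.

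In other gene groups the counts of called members were as follows, with no test between groups. Among 46 members of genes known for introns held back in the nucleus, 6 rose in acute share (13%) and 1, Ccnl2-205, fell. Core spliceosome genes had 3 of 30 higher, Sf3b6-202, Prpf3-209 and U2af2-206, and Prpf4b-206 lower. Hepatocyte metabolic enzymes had 13 of 127 higher (10.2%) and 3 lower. Besides Cyp27a1-203 and Ftcd-202, the higher ones included Acacb-204, of an acetyl-CoA carboxylase, by 25.1 points, and Fasn-202, of fatty acid synthase, by 15.5. Aox3-204, of an aldehyde oxidase, was the largest fall among them, from 38.8%, 37.5% and 34.4% to 12.2%, 20% and 15.1%. Secreted proteins had 3 of 38 higher: Mug1-203, of the protease inhibitor murinoglobulin, by 28.7 points, Itih4-205 by 25.1 and Trf-209. In oxidative phosphorylation, a list whose name pattern also takes assembly factors, 2 of 46 rose, Ndufaf7-205 and Ndufb4-202, by 12.2 and 11.1 points. The translation list, chosen by a name pattern that also takes Rps6kb1 and Rps6kb2, had 1 of 101 higher and 4 lower, led by Eif2b2-206 at −24.7 points. Mlxipl-205, the only member of the nuclear RNA list, was not called (1.67 points). Over all members 13.4% rose and 3.57% fell, which is the level these counts are read against.

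At the level of TPM, the largest acute rises besides Ginm1-205 were Cib3-202 (log2 3.69), Igfbp2-203 (2.62) and Acaa1a-205 (2.61), of a growth factor binding protein and a peroxisomal thiolase in the latter cases. Igfbp2-203 stood at 0.0917, 0.0492 and 0.103 TPM with GFP and at 5.22, 3.93 and 8.53 TPM in the knockout. The other 8 libraries, at 1.68 to 6.40 TPM, again lay on the knockout side. Falls were largest for Eif5-210 (−2.69), Aox3-204 (−2.64), Rgs3-207 (−2.64) and Tcp1-210 (−2.61). Eif5-210 was listed at 0 in 2 of the 3 acute knockouts.

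At P10, fewer members were called than in the acute model, with 2 libraries a group. By TPM 81 rose (3.91%) and 18 fell (0.87%), beside 4.25% and 0.921% of all transcripts. The median was 0.19 for members and 0.21 for all transcripts, and median-ratio rescaling gave 39 higher and 32 lower. Under that scaling 1615 of all 18682 transcripts were called in either direction. The count of 99 depended on single libraries: it was 16 or 17 without either control library and 23 without the second HKO library. The larger rises included Scn8a-220, described below with the shares, and 2 RNAs of Afp, the fetal plasma protein α-fetoprotein. Afp-205 stood at 4.14 and 8.37 TPM in controls and at 41.2 and 75.4 TPM in HKO (log2 3.03, adjusted p = 0.0015), and Afp-203 at 0.851 and 1.68 against 9.42 and 14.5 TPM. The groups overlapped for neither RNA. Their share of Afp stayed under 1% in every P10 library, and in the authors' deposited table the whole gene had a log2 fold change of 2.2. Hsd3b7-206, of a bile acid synthesis enzyme, fell from 5.43 and 5.13 to 1.07 and 0.301 TPM (log2 −1.94, adjusted p = 0.012).

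By share, 3 members rose at P10 (0.145% of members, beside 0.284% of all transcripts) and 2 fell (0.0966%, beside 0.219%). Ess2-202, of a nuclear spliceosome-associated protein, fell from 83.6% and 84.6% of its gene to 51.0% and 41.1% (−38.1 points, adjusted p = 0.00449). Its level fell from 9.30 and 9.20 to 2.60 and 1.91 TPM, and it reached at most 0.508 TPM in all later libraries. Scn8a-220, of a voltage-gated sodium channel, rose from 56.3% and 51.2% to 97.5% and 98.4%, at 0.0747 and 0.0588 TPM in controls and 5.33 and 12.8 TPM in HKO. The other calls were Prrg1-208 and Gm13305-205, higher, and Il11ra1-206, lower.

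At 1 month, 26 members rose in TPM (1.26%) and 19 fell (0.918%), beside 1.93% and 1.28% of all transcripts. Median-ratio rescaling gave 50 higher and 21 lower, with 1460 of all 18682 transcripts called in either direction. The balance depended on single libraries, with 11 higher and 35 lower without the second control library and 11 and 12 without the second HKO library. Without either HKO library 21 or 23 members were called in place of 45. Cib3-202, of a calcium-binding protein, and Acaa1b-202, of another peroxisomal thiolase, were among the larger rises. Cib3-202 stood at 0.137 and 0.207 TPM in controls and at 6.45 and 6.47 TPM in HKO (log2 2.67, adjusted p = 0.000105). Acaa1b-202 stood at 10.0 and 4.58 against 53.6 and 42.5 TPM. Tef-207, of a circadian transcription factor, fell from 12.2 and 4.55 to 1.77 and 1.09 TPM, and Gm43305-201, of a gene without a coding transcript, from 558 and 306 to 106 and 147 TPM. At P10 Gm43305-201 had gone the other way, from 18.7 and 20.9 to 109 and 94.4 TPM (log2 2.31, adjusted p = 0.00525). Share called 2 members higher (0.0966%, beside 0.231%) and 1 lower (0.0483%, beside 0.118%): Prrg1-208, Acadm-207 and Il11ra1-206. Acadm-207, of medium-chain acyl-CoA dehydrogenase, ran from 0 to 79.0 TPM over the libraries, with such gaps within groups too: it was at 19.9, 20.4 and 0 TPM with GFP.

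Few members were called in all 3 knockout comparisons by TPM: Abcb4-203, Cib3-202, Rbm28-204 and Xpot-204 rose in each, and Srsf1-203 fell in each. Abcb4-203, Rbm28-204 and Xpot-204 are described because of this, after their values were seen. Xpot-204, of the tRNA exporter exportin-t, stood at 1.08 and 0.875 TPM in P10 controls against 5.44 and 7.33 in HKO. At 1 month it stood at 0.714 and 0.283 against 2.77 and 3.44 TPM, and in the acute model at 0.977, 0.496 and 0.603 against 5.37, 4.03 and 4.39 TPM. Log2 differences were 1.89, 1.46 and 1.73, and no knockout group overlapped its control. Here GFP was with the other controls and not apart from them, and the same holds for the share: 1.4% to 7.66% in all 7 control libraries, 16.3% to 18.6% in HKO and 30.2% to 36.8% in the acute knockout. The share difference was called in the acute model (28.2 points, adjusted p = 0.000501) but not at P10 or 1 month (adjusted p = 0.192 and 0.0766). Abcb4-203, of the canalicular phospholipid transporter, rose by 1.12, 1.58 and 2.34 on the log2 scale, and Rbm28-204, of a ribosome biogenesis protein, by 1.23, 0.91 and 1.70.

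Some members called at both P10 and 1 month were also on the knockout side in the GFP livers, which carry the floxed allele without Cre. Prrg1-208, of a vitamin K-dependent membrane protein gene on the X chromosome, held 1.29% and 1.01% of Prrg1 in P10 controls and 3.7% and 3.04% in 1-month controls. It held 61.6% and 55.3% in HKO at P10, 96.5% and 96.6% at 1 month (93.2 points, called), and 97.3% to 99.4% in all 6 acute libraries, GFP and knockout alike. Its TPM was 0.005 to 0.0222 in the 4 HKO-model controls and 1.99 to 9.03 in the 10 libraries with srsf1f/f. Gm13305-205 was listed at 0 in all 4 of those controls and at 2.22 to 10.2 TPM in the 10 others. Il11ra1-206, of the interleukin-11 receptor gene, ran the other way, at 3.30 to 5.14 TPM in the 4 controls and at 0 to 0.406 TPM in the 10 others. Of 8 members higher in TPM at both ages, GFP lay above all 4 HKO-model controls in 3, Prrg1-208, Gm13305-205 and Cib3-202, and of 2 that were lower, GFP lay below them in 1, Il11ra1-206. Over all members GFP lay above in 6.14% and below in 29.2%. For Prrg1-208, Gm13305-205 and Il11ra1-206 the floxed line and the loss of Srsf1 cannot be told apart at P10 and 1 month. Cib3-202 differed from these: in the acute model, with srsf1f/f in both groups, it stood at 0.642, 0.659 and 1.45 TPM with GFP and at 23.7, 17.4 and 30.9 TPM in the knockout (log2 3.69, adjusted p = 0.00028).

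Gm13305-205 and Il11ra1-206 are near-identical copies. The RNAs, 522 and 523 nt long, were the same at 517 of 522 positions compared without gaps, and 337 of 492 words of 31 bases in Gm13305-205 also occur in Il11ra1-206. Their summed TPM was 4.51 and 5.14 in P10 controls, 4.67 and 10.3 in HKO, 3.30 and 3.39 in 1-month controls and 2.41 and 3.03 in HKO. With GFP the sum was 4.13 to 5.17 and in the acute knockout 5.72 to 6.43. The values of these RNAs are uncertain, since the estimation could divide shared reads between the copies.

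Between 1-month and P10 controls, 177 members rose in TPM (8.55%) and 215 fell (10.4%), beside 6.54% and 19.7% of all transcripts, with a median of −0.08 for members and −0.30 for all. Median-ratio rescaling gave 236 higher and 146 lower, with 6195 of all 18682 transcripts called in either direction. The rises were led by Mup10-202 and Mup14-204, of the major urinary proteins that adult livers secrete. Mup14-204 went from 0.0683 and 0.0501 TPM at P10 to 230 and 188 TPM at 1 month (log2 7.62), and Mup10-202 rose by 7.79 on that scale. Cdk1-204, of the kinase that drives mitosis, fell from 16.3 and 17.5 to 0.101 and 0.688 TPM (log2 −3.71), and was at 3.51 and 6.03 TPM in HKO at 1 month, a called rise of 2.05. Share rose for 23 members (1.11%, beside 1.35%) and fell for 9 (0.435%, beside 1.85%). Rgs3-207, of a regulator of G protein signalling, rose from 10.8% and 19.4% to 69.3% and 70.0%, and Zap70-204 from 51.3% and 67.3% to 99.1% and 98.6%. Ess2-202 fell from 83.6% and 84.6% to 18% and 20.9% (−64.7 points, adjusted p = 0.000208). All 3 pairs of groups were apart. Without the first or the second P10 control, or without the first 1-month control, the count of 32 moved by more than 1.5 times, to as few as 6.

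The effect on share was more positive in the acute model than at 1 month for 96 members (4.64%, beside 3.74% of all transcripts) and more negative for 34 (1.64%, beside 3.84%), by the interaction of model and genotype over all 14 libraries. With the first 1-month libraries left out, which leaves 1 library a group there, 50 members were called in place of 130. Examples were Rnaseh2c-203 (38.8 points, adjusted p = 0.00377), Asah1-203 (34.0 points, adjusted p = 0.00156) and Trf-209 (26.0 points, adjusted p = 0.00489), each with an acute rise and a 1-month difference of 3.04, −7.92 and −2.36 points. Since each acute effect is measured against GFP libraries that stood apart, these differences share that property.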

How the data were processed

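Poly(A) RNA of 14 hepatocyte libraries was quantified by the authors with kallisto 0.46.0 on GRCm38, per the submitters' processing notes, and deposited as TPM per transcript with no counts, so depth is unknown. The same notes name bcl2fastq 2.17.1.14. The authors' deposited gene tables, made with DESeq2, give log2 fold changes, test statistics (a score) and p-values, printed as theirs. Here limma 3.58.1 (R 4.3.3, two-sided, Benjamini-Hochberg adjustment over all transcripts tested) was fitted to log2(TPM + 1) of the 18682 transcripts whose mean reached 1 TPM. For shares it was fitted to the log2 ratio of a transcript to the rest of its gene, each + 1, in 16887 transcripts, and a call also needed a difference of 10 percentage points. Such folds understate changes of low transcripts. P10 and 1 month were fitted on 8 libraries together, the acute model on 6 and the difference between models on 14. The fit to log2(TPM + 1) was tested on simulated data for P10, 1 month and the acute model. The fit to shares and the difference between models were not. Named are the 8 most abundant members, per comparison the 6 largest called rises and falls in share and 4 in TPM with groups apart, and the best-ranked members of each gene list. Members and lists were chosen with earlier results of these data known. Annotation and sequences came from GENCODE M21; 60 members were not matched. Some named members and 1 sequence are not reported here. Python 3.11.15, pandas 2.3.3 and matplotlib 3.10.9 were used.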

Additional observations from a re-analysis of the deposited data

Results flagged for a closer look

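The effect of losing Srsf1 on share differed between the acute model and 1 month in 130 members, by limma's test of the interaction over all 14 libraries at an adjusted p below 0.05 and a difference of at least 10 percentage points. Acute minus 1-month effects were 38.77 points for Rnaseh2c-203, 43.58 for Cntrl-210, 32.75 for Ginm1-205 and 33.97 for Asah1-203, each with GFP libraries at the low end in the acute model. They were −33.53 points for Immp2l-204 and −45.48 for Eif2b2-206. Eif2b2-206 was at 30.1% and 8.79% in the 1-month controls, a gap within 1 group that bears on its value. Gm13305-205 (−93.65 points) and Prrg1-208 (−93.59 points) also differed. Their shares were high in all 6 acute libraries, GFP included, and low in the controls without the floxed allele. In 1 of the 1-month controls the Gm13305 gene was listed at 0 and gave no share.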

How the results depend on the processing

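The share calls of the acute model were the steadiest: 351 members were called, and the alternatives gave 301 to 366, with 325 to 366 when single libraries were left out. Without a filter on low values, TPM calls numbered 46 at P10 (99 as reported), 5 at 1 month (45), 245 in the acute model (723) and 223 between control ages (392), and share calls numbered 10 at P10 (5) and 70 for the difference of effects (130). Other settings that moved a count by over 1.5 times were, at P10 by TPM, a pseudocount of 0.1 (64) and the 2 groups alone (250), at 1 month by TPM median-ratio rescaling (71), at 1 month by share the 2 groups alone, where limma called 0, and between control ages by share the arcsine square root (12). Chosen after the data were seen, the second 1-month libraries alone, 1 against 1 with the spread at 1 month taken from the other groups in the fit and fewer residual degrees of freedom, gave 8 calls by TPM and 50 for the difference of effects. Leaving out 1 library at a time gave 16 to 80 by TPM at P10, lowest without either control; 21 to 46 at 1 month, lowest without either HKO library; 485 to 740 in the acute model; and 181 to 401 between control ages, lowest without either P10 control. By share it gave 0 to 5, 1 to 3, 325 to 366 and 6 to 33, with P10 controls and the second 1-month HKO library deciding the low ends, and 32 to 192 for the difference of effects, where each acute library, the first 1-month control and the second HKO library moved it by over 1.5 times. For Rgs3-207 the acute share difference of −11.0 points ran from −18.15 to 0.67 when single libraries were left out, reversed without the third acHKO library. At the 3′ end 26.2% to 31.5% rose in share and at the 5′ end 7.73% to 9.05% fell.

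Replicate numbers were not taken as pairs in the main fits. Deviations of same-numbered libraries correlated at 0.021 at P10 and at 0.002, 0.204 and 0.162 in the acute model. Not every acute knockout library correlated best with its own number. At 1 month same-numbered libraries correlated at 0.404. With 2 libraries a group the value for differently numbered ones, −0.404, is fixed as the opposite and adds nothing. With the replicate block there were 191 TPM calls at P10, 66 at 1 month and 889 for the acute model, and 346 acute share calls. Of 2250 alternative values for 228 calls of named members, 1735 kept the call, 514 kept the direction without it and 1 reversed; for acute share 362 of 390 kept it. Depth is unknown, and scarce members with few bases of their own are the least certain: 130 had 1 to 30 such bases.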
